A study of Saccharomyces cerevisiae with 32 samples.

Results

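GCN4 and 9 genes that control its translation or its turnover were followed in budding yeast (Saccharomyces cerevisiae) strains altered in the RNA helicase genes DED1 and DBP1. The 10 genes were taken by reading frame identifier from the 5446 reading frames in the deposited tables: GCN4 (YEL009C), GCN2 (YDR283C), GCN1 (YGL195W), GCN20 (YFR009W), GCN3 (YKR026C), GCD7 (YLR291C), GCD1 (YOR260W), GCD2 (YGR083C), GCD6 (YDR211W) and PCL5 (YHR071W). They were selected on measured values, with earlier results of these data known, among them the opposite translational efficiency of GCN4 in the cold-sensitive and heat-sensitive ded1 mutants, so the values of GCN4 in those comparisons are a description. All 10 were in all 6 tables and passed the level minimum used here in every comparison, and none overlapped another annotated gene.

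Gcn4 is the transcription activator of amino acid synthesis genes, and the translation of its mRNA is held down by short upstream reading frames in the leader. When amino acids run short, the kinase Gcn2, with its activators Gcn1 and Gcn20, phosphorylates initiation factor eIF2. This slows the nucleotide exchange that eIF2B performs on eIF2, and ribosomes that have passed the upstream frames then reach the GCN4 start codon more often. Pcl5 is a cyclin of the kinase Pho85 that directs Gcn4 to degradation, and transcription of PCL5 is itself driven by Gcn4. Ded1 and Dbp1 are related DEAD-box helicases, and Ded1 acts in the scanning of mRNA leaders during initiation.

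Ribosome footprints and mRNA were sequenced from 8 strains in 3 experiments, with 32 libraries, 2 per strain and assay. At 15 °C the control DED1-CS was set beside ded1-cs, a cold-sensitive mutant, without or with a high-copy DBP1 gene (hcDBP1). At 37 °C the control DED1-TS was set beside ded1-ts, a heat-sensitive mutant, again without or with hcDBP1. A separate 37 °C experiment held a strain deleted for dbp1 (dbp1-deletion), not labelled with a ded1 mutation, and a double mutant that combined this deletion with ded1-ts, and their deposited changes are against the WT of their tables, whose levels were not used here. All cultures were grown in synthetic complete medium, with plasmid selection where it was needed, and were treated with cycloheximide before harvest. Which strains carried which plasmid or were grown in which dropout medium, the mutations in the ded1 alleles, and the time at each temperature are not given in the sources used here.

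Each deposited level is a log2 value that pools the libraries of a strain in an assay, and log2 changes against the control of each table stand beside it. Values of single libraries were not in the tables, so no standard deviation, standard error or p can be given, and no difference below was tested against replicate spread. The sequencing depth is unknown, and the normalized levels summed to between 5651054 and 48359134 per column. Translational efficiency (TE) is the deposited log2 footprint change minus the deposited log2 mRNA change. Calls of higher or lower mean a log2 change of 1 or more in either direction, which is 2-fold, and were made for genes whose geometric mean level reached 50 in both assays. Footprints were counted over annotated reading frames, and footprints on the GCN4 leader were not analysed here. In the authors' deposited table, DBP1 mRNA stood at 5.85 and 6.89 above the control with hcDBP1 in ded1-cs and ded1-ts, and at -6.21 and -9.45 in the dbp1-deletion and double mutant strains. DED1 mRNA in the authors' deposited table stood at 1.37 in ded1-cs, -1.17 in ded1-ts, -2.63 in the dbp1-deletion strain and -0.95 in the double mutant.

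GCN4 footprints were lower in ded1-cs than in its control and higher in ded1-ts than in its control, while GCN4 mRNA was higher in both mutants. In DED1-CS the authors' log2 footprint level of GCN4 was 11.51 and its log2 mRNA level was 13.9. In ded1-cs the levels were 9.8 and 14.6, and in ded1-cs with hcDBP1 they were 10.5 and 14.5. In the table of the hcDBP1 strain the DED1-CS levels were 11.40 and 13.8, so in both mutants footprints stood below and mRNA above the control. In DED1-TS the log2 footprint level of GCN4 was 10.83 and its log2 mRNA level was 14.4. In ded1-ts the levels were 13.05 and 15.2, and in ded1-ts with hcDBP1 they were 12.53 and 15. The DED1-TS levels in the table of the hcDBP1 strain were 10.93 and 14.5, so at 37 °C footprints and mRNA both stood above the control. In the separate experiment the levels were 10.07 and 12.96 in the dbp1-deletion strain and 11.23 and 13.46 in the double mutant. Each table was scaled on its own, so levels compare within a table, and footprint and mRNA levels are on separate scales.

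**Figure D1:**
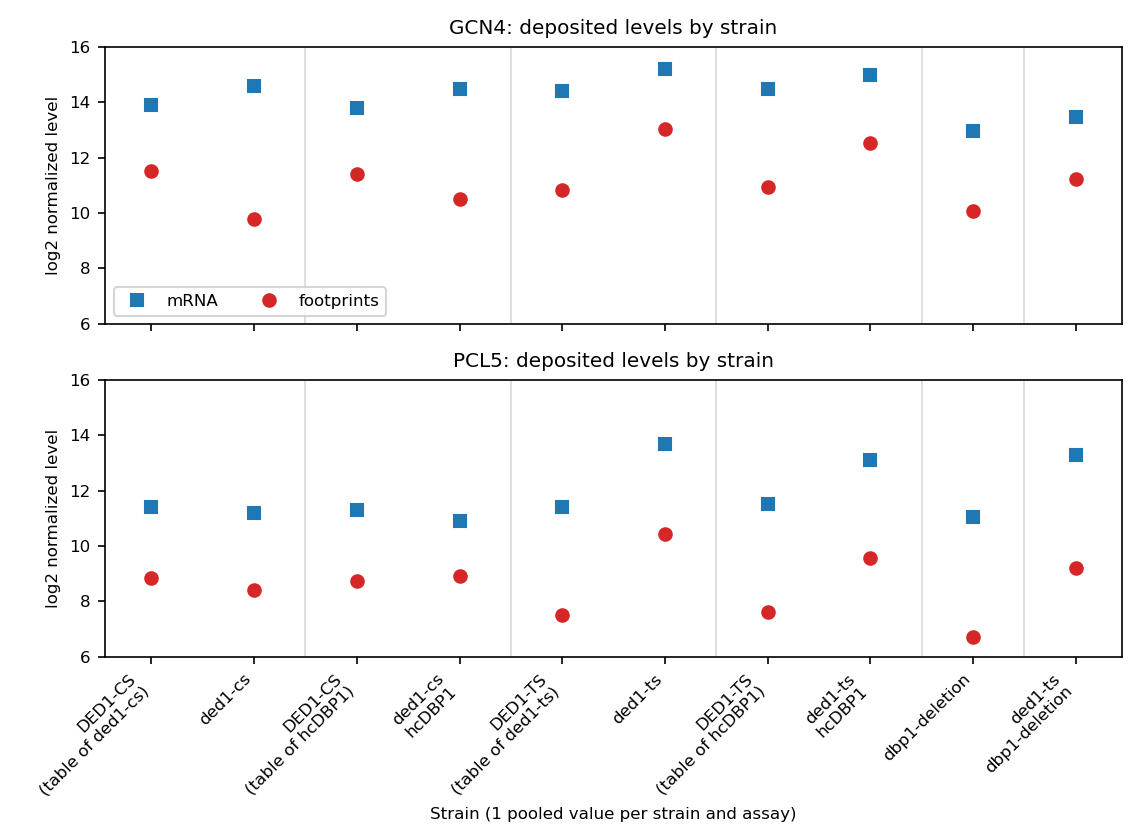
Deposited log2 levels of GCN4 and PCL5 in footprints and mRNA (vertical axes) for each strain and table (horizontal axis), each point being 1 pooled value with no error. Solid grey lines part the tables. GCN4 footprints stand at 9.8 in ded1-cs against 11.51 in DED1-CS, and at 13.05 in ded1-ts against 10.83 in DED1-TS.

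The deposited changes put GCN4 on opposite sides of its controls at the 2 temperatures. For ded1-cs the authors' deposited table gives GCN4 a footprint change of -1.72, an mRNA change of 0.67 and a TE of -2.40. For ded1-ts the authors' deposited table gives 2.22 in footprints, 0.79 in mRNA and 1.43 in TE. The mRNA parts were alike, and the footprint parts were of opposite sign. The dbp1-deletion strain, with no ded1 mutation in its label, also had more GCN4 footprints, at 1.61, with mRNA at 0.50 and TE at 1.10 in the authors' deposited table. In the double mutant the authors' deposited table gives 2.90 in footprints, 1.14 in mRNA and 1.76 in TE. The GCN4 reading frame was therefore more than 2-fold higher in TE in ded1-ts, in the double mutant and in the dbp1-deletion strain, in which DED1 mRNA and footprints were themselves lower, at -2.63 and -1.46 in the authors' deposited table. Among 5078 genes, 138 had a lower TE than GCN4 in ded1-cs. In ded1-ts 32 of 5222 genes had a higher TE than GCN4, in the dbp1-deletion strain 15 of 4962, and in the double mutant 16 of 5008. By difference of the deposited changes, the GCN4 TE in ded1-ts exceeded that in ded1-cs by 3.83 on the log2 scale, and 0 of 5167 genes had a larger difference. This difference sets a pair of mutant alleles side by side at different temperatures, so allele and temperature cannot be told apart.

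Genes that crossed from 2-fold lower to 2-fold higher were few. Of 5071 genes passing the level minimum in both comparisons, 4 were at least 2-fold lower in TE in ded1-cs and at least 2-fold higher in ded1-ts, and 0 showed the reverse. GCN4 was among the 4, and the other 3 are named here after their values were seen. They were CNL1, with TE of -1.02 and 1.26 in the authors' deposited table, and KTR5, a putative mannosyltransferase gene, with -1.32 and 1.05 in the authors' deposited table. The last was YIL060W, with -1.24 and 2.00 in the authors' deposited table, whose annotated frame overlaps another annotated frame (YIL059C), so reads there may be shared.

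High-copy DBP1 put GCN4 footprints and TE closer to the control in both mutants, by less than 2-fold in TE. In ded1-cs with hcDBP1 the authors' deposited table gives GCN4 -0.95 in footprints, 0.70 in mRNA and -1.65 in TE against DED1-CS. High-copy DBP1 moved GCN4 in ded1-cs by 0.77 in footprints, 0.03 in mRNA and 0.75 in TE, by difference of the deposited changes. In ded1-ts with hcDBP1 the authors' deposited table gives 1.60 in footprints, 0.47 in mRNA and 1.13 in TE against DED1-TS, and this TE was 0.91 with the columns scaled to equal totals, below 2-fold. In ded1-ts it moved GCN4 by -0.62 in footprints, -0.33 in mRNA and -0.30 in TE, by difference of the deposited changes. In ded1-cs the movement was almost wholly in footprints, and in ded1-ts it was divided between footprints per mRNA and mRNA. Among all genes, 286 of 5077 rose more in TE with hcDBP1 in ded1-cs, and 629 of 5215 fell more in ded1-ts. These comparisons share the control or the mutant strain within an experiment, so they are not independent of those above.

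The ded1-ts allele added to the GCN4 level of a strain that already lacked DBP1. By difference of the deposited changes, the double mutant exceeded the dbp1-deletion strain by 1.29 in GCN4 footprints, 0.64 in mRNA and 0.65 in TE. The effect of ded1-ts on GCN4 was smaller in the strain without DBP1 than in the strain with it, by -0.93 in footprints, -0.15 in mRNA and -0.77 in TE by difference of the deposited changes. In mRNA the effect of ded1-ts was thus 0.64 beside 0.79, and in TE 0.65 beside 1.43, the values with DBP1 being those of the authors' deposited table. The strains with and without DBP1 come from different experiments, so the background and the experiment cannot be told apart. DED1 mRNA differed too, being higher in the double mutant than in the dbp1-deletion strain but lower in ded1-ts than in DED1-TS. The part of DED1 mRNA in the smaller effect was not tested.

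Measured as footprints per mRNA within a strain, GCN4 lay below the 5th percentile of all genes in every strain. Dividing footprint by mRNA level cancels gene length, so genes can be ranked by this ratio. In DED1-CS its log2 footprint-to-mRNA ratio lay 2.41 below the median of all genes, and 40 of 5073 genes had a lower ratio. In ded1-cs it lay 4.8 below the median, and 0 of 5073 genes had a lower ratio. In ded1-cs with hcDBP1 it lay 4.1 below the median, and 1 of 5086 genes was lower. The already low occupancy of GCN4 at 15 °C was thus at the bottom of the whole table in ded1-cs. In DED1-TS the ratio lay 3.63 below the median, and 17 of 5191 genes were lower. In ded1-ts it lay 2.21 below the median with 207 of 5243 genes lower, and in ded1-ts with hcDBP1 2.53 below with 113 of 5220 lower. At 37 °C the mutants therefore stood above their control and still far below a typical gene. The dbp1-deletion strain stood 2.94 below the median with 27 of 4962 genes lower, and the double mutant 2.31 below with 210 of 5008 lower. From low to high, the order was ded1-cs, ded1-cs with hcDBP1, DED1-TS, the dbp1-deletion strain, ded1-ts with hcDBP1, DED1-CS, the double mutant and ded1-ts. The deposited levels are rounded, which moved differences of levels by up to 0.0997, so the last 4 in this order, whose gaps are about that size, are not separated.

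**Figure D2:**
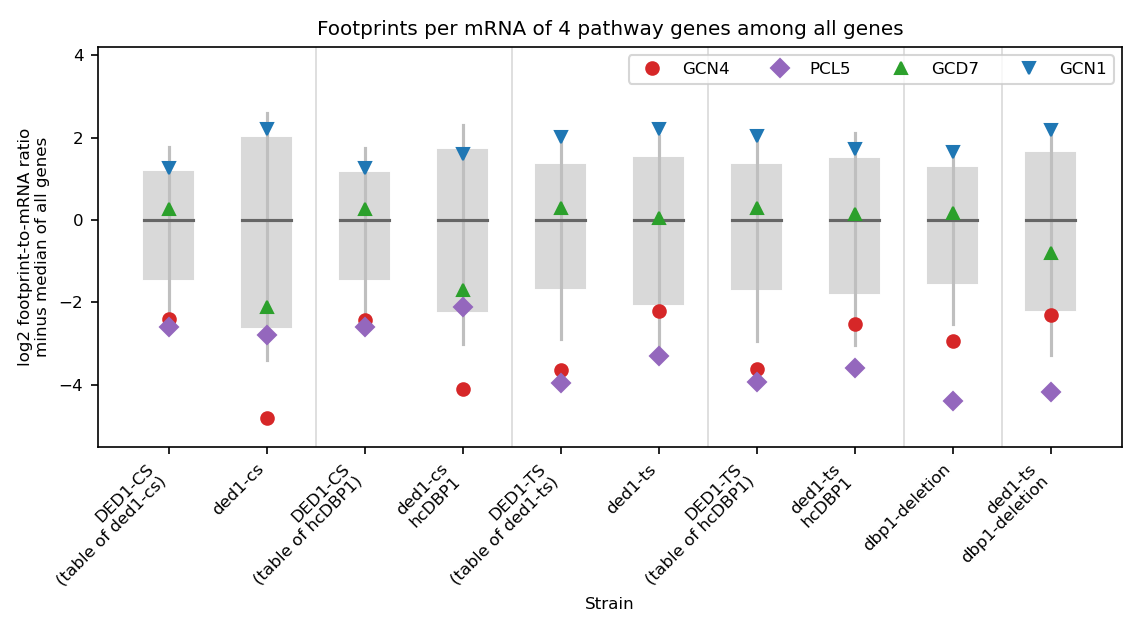
Log2 footprint-to-mRNA ratio minus the median of all genes (vertical axis) in each strain and table (horizontal axis) for GCN4, PCL5, GCD7 and GCN1; the dash is the median of all genes, the grey box their 5th to 95th percentile and the thin line their 1st to 99th percentile. GCN4 lies 4.8 below the median in ded1-cs and 2.21 below it in ded1-ts, and PCL5 lies low in every strain.

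PCL5, the cyclin gene that is both a target of Gcn4 and a part of its degradation, had much more mRNA in the ded1-ts strains and did not in the ded1-cs strains. In DED1-CS, ded1-cs and ded1-cs with hcDBP1 its log2 mRNA levels were 11.4, 11.2 and 10.9, and its log2 footprint levels were 8.83, 8.4 and 8.9. In DED1-TS and in ded1-ts without and with hcDBP1 its log2 mRNA levels were 11.4, 13.7 and 13.1, and its log2 footprint levels were 7.51, 10.45 and 9.56. In the dbp1-deletion and double mutant strains the log2 mRNA levels were 11.05 and 13.3, and the log2 footprint levels 6.71 and 9.2. PCL5 mRNA thus stood far above its control in ded1-ts and close to it in ded1-cs.

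In the authors' deposited table, PCL5 mRNA stood at 2.29 in ded1-ts, and 6 of 5222 genes stood higher. With hcDBP1 the authors' deposited table gives 1.56 in mRNA, and 10 of 5210 genes stood higher. In the double mutant PCL5 mRNA stood at 3.73 in the authors' deposited table, above every other of the 5008 genes. For the dbp1-deletion strain the authors' deposited table gives 1.34 in mRNA. The mRNA of this target thus stood more than 2-fold higher in all 4 of the 37 °C strains with altered DED1 or DBP1. At 15 °C the authors' deposited table gives PCL5 mRNA changes of -0.23 in ded1-cs and -0.39 with hcDBP1, both under 2-fold. PCL5 TE stayed under 2-fold in every strain, between -0.59 in the dbp1-deletion strain and 0.66 in ded1-ts in the authors' deposited table. By difference of the deposited changes, PCL5 mRNA in ded1-ts was lower by 0.73 with hcDBP1 than without it, and the double mutant exceeded the dbp1-deletion strain by 2.39. PCL5 was also poorly occupied, with a log2 footprint-to-mRNA ratio 2.59 below the median of all genes in DED1-CS, 3.95 below it in DED1-TS and 4.39 below it in the dbp1-deletion strain, where 1 of 4962 genes was lower.

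The other amino acid synthesis targets of Gcn4 did not follow PCL5 in ded1-ts. The list held 44 genes from textbook knowledge, of which 43 were analysed, and counts are set beside those of all genes. In ded1-cs, 0 of 43 were at least 2-fold higher in mRNA and 5 were lower, against 1.22% and 0.886% of all genes, with a median of -0.32 beside -0.01 for all genes. The 5 were arginine and vitamin B6 pathway genes: ARG3 at -2.12, ARG1 at -2.10, ARG4 at -1.02, and the neighbours SNO1 and SNZ1, both at -1.10 in the authors' deposited table. SNO1 and SNZ1 have close copies in the genome, so their reads are uncertain. With hcDBP1 7 of 43 were lower and 0 higher, against 0.867% and 0.572% of all genes, with ARG1 at -2.49 and ARG3 at -2.47 in the authors' deposited table. In each of these mutants, which share the control DED1-CS, 6 of the 43 targets stood above 0 in mRNA.

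In ded1-ts 2 of 43 targets were higher in mRNA and 0 lower, against 4.16% and 3.2% of all genes, and the median was 0.05. ASN1, an asparagine synthetase gene, was among them, at 1.10 in the authors' deposited table. This share is near that of all genes. With hcDBP1 0 of 43 were higher or lower, against 1.69% and 0.595% of all genes. In the dbp1-deletion strain 13 of 43 were higher and 0 lower, against 4.39% and 1.25% of all genes, with a median of 0.64. The authors' deposited table gives BAT1, a branched-chain aminotransferase gene, at 2.96 and SNO1 at 2.61 in that strain. The double mutant had 10 of 43 higher and 1 lower, beside 10.3% and 4.65% of all genes, with SNO1 at 3.47 and GLN1, the glutamine synthetase gene, at -1.12 in the authors' deposited table. By difference of the deposited changes, 0 of 43 were higher and 4 lower in the double mutant relative to dbp1-deletion alone, beside 3.7% and 3.58% of all genes, with BAT1 at -2.06 and ILV3, a dihydroxyacid dehydratase gene, at -1.75. GCN4 footprints were higher in this comparison, and none of these 43 targets was at least 2-fold higher in mRNA. PCL5, a Gcn4 target outside this list, was higher by 2.39 in mRNA there.

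Auxotrophic marker genes differed beside these targets. HIS3 mRNA stood at -3.74 in the dbp1-deletion strain and -3.92 in the double mutant against the WT of their tables in the authors' deposited table. LEU2 mRNA in the authors' deposited table stood at -0.49 in ded1-cs, -1.16 with hcDBP1, -0.84 in ded1-ts and 0.17 with hcDBP1 there. The part of marker genes, plasmids and dropout media in the differences of GCN4 and its targets was not tested.

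**Figure D3:**
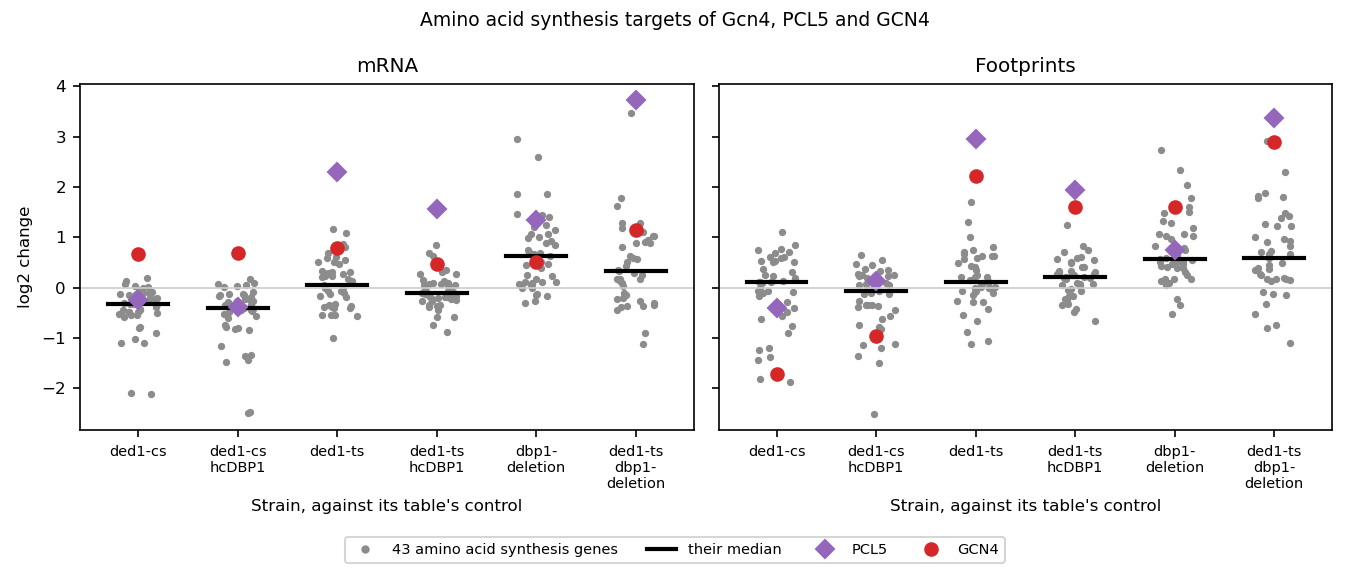
Deposited log2 changes in mRNA (left) and footprints (right) of 43 amino acid synthesis targets (grey points, spread sideways for visibility), their median (bar), PCL5 (diamond) and GCN4 (circle) in each strain against the control of its table, with no error. PCL5 mRNA lies above every target in ded1-ts, at 2.29, and in the double mutant, at 3.73, while the target median is 0.05 in ded1-ts and 0.64 in the dbp1-deletion strain.

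Across the 10 genes, changes of 2-fold in deposited TE were held by GCN4 and GCD7 in the comparisons with a control. With equal column totals GCN2, GCN20 and GCD6 were also 2-fold lower in ded1-cs, making 5 of 10 lower, and GCN2 and GCN20 in ded1-cs with hcDBP1, making 4 of 10. In ded1-cs 2 of 10 were lower and 0 higher, where 38.3% of all genes were called in either direction and 21.9% were lower. The split of all genes was 832 higher and 1113 lower as deposited and 91 and 1789 with equal column totals. With hcDBP1 the same GCN4 and GCD7 were lower and 0 higher, where 22.3% of all genes were called and 13.1% were lower, and the all-gene split of 468 higher and 665 lower was 87 and 1229 with equal totals and 301 and 817 when centred. In ded1-ts 1 of 10 was higher (GCN4) and 0 lower, where 9.25% of all genes were called and 2.85% were higher. With hcDBP1 1 of 10 was higher (GCN4) and 0 lower, where 3.86% were called and 0.883% were higher, and the split of 46 and 155 was 19 and 296 with equal totals and 28 and 214 when centred. In the dbp1-deletion strain 1 of 10 was higher (GCN4) and 0 lower, where 2.26% were called and 0.443% were higher. In the double mutant 1 of 10 was higher (GCN4) and 1 lower (GCD7), where 12.8% were called, 2.94% higher and 9.84% lower. The share of the 10 genes that was lower in ded1-cs is near that of all genes. Equal totals shift the TE of every gene by -0.59 in ded1-cs, -0.42 in ded1-cs with hcDBP1, -0.07 in ded1-ts and -0.22 in ded1-ts with hcDBP1.

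By difference of the deposited changes, 0 of 10 differed 2-fold in TE between hcDBP1 and its absence in ded1-cs, where 2.36% of all genes did, or in ded1-ts, where 1.59% did. The double mutant and the dbp1-deletion strain differed 2-fold in 0 of 10, where 10.5% of all genes did. Between the effects of ded1-ts and ded1-cs, GCN4 and GCD7 were higher and GCN3 and GCD2 lower, where 26.4% of all genes were called. With equal totals 5 were higher and 0 lower, since GCN3 and GCD2 were then under 2-fold and GCN20, GCD6 and PCL5 past it. All genes then split into 1625 higher and 70 lower. For the effect of hcDBP1 in ded1-ts less that in ded1-cs, 1 of 10 was lower, GCN4 at -1.04 by difference of the deposited changes, where 3.86% of all genes were called. This value was -0.9997, just under 2-fold, when centred on all genes. For the effect of ded1-ts without DBP1 less that with DBP1, 0 of 10 were called, where 2.19% of all genes were.

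**Figure D4:**
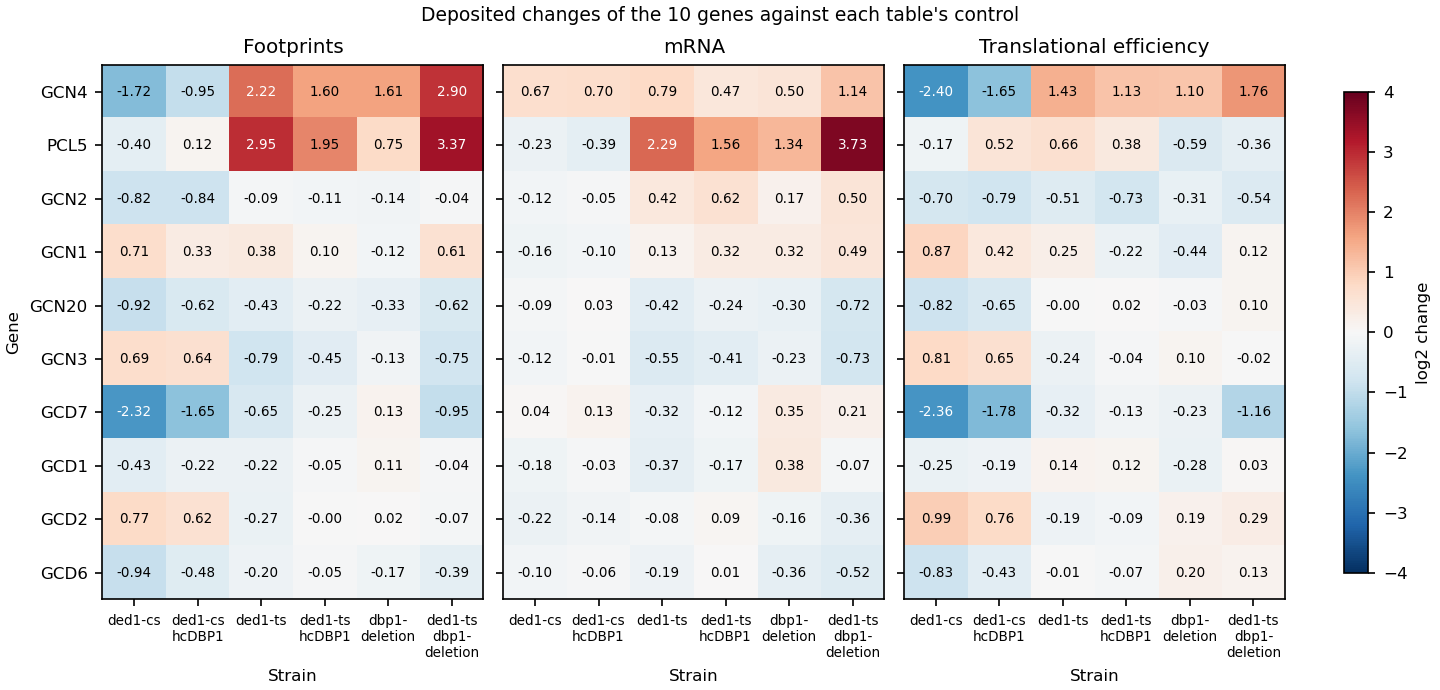
Deposited log2 changes of the 10 genes (rows) in footprints, mRNA and translational efficiency (panels) for each strain against the control of its table (columns), with the value printed in each cell and no error. GCN4 changes sign in TE between -2.40 in ded1-cs and 1.43 in ded1-ts, GCD7 lies at -2.36 in ded1-cs, and PCL5 mRNA reaches 3.73 in the double mutant.

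The sensor arm of the pathway moved by less than 2-fold as deposited, and its genes went different ways. With equal column totals GCN2 stood at -1.30 in TE and GCN20 at -1.42 in ded1-cs, and at -1.21 and -1.07 with hcDBP1, all past 2-fold. The same scaling shifts every TE by -0.59 in ded1-cs and -0.42 with hcDBP1, which brings the higher GCN1 closer to its control. GCN2, the eIF2 kinase gene, had a lower TE in all 6 strains in the authors' deposited table, between -0.79 in ded1-cs with hcDBP1 and -0.31 in the dbp1-deletion strain. Its mRNA in the authors' deposited table stood at 0.42 in ded1-ts, 0.62 with hcDBP1 and 0.50 in the double mutant, and between -0.12 and 0.17 in the others. GCN2 footprints at 37 °C thus lay close to their controls, between -0.14 and -0.04 in the authors' deposited table, and at 15 °C they stood at -0.82 in ded1-cs and -0.84 with hcDBP1. GCN1 and GCN20 encode partners in a complex that activates Gcn2, and in ded1-cs they parted. The authors' deposited table gives a TE of 0.87 for GCN1 and -0.82 for GCN20 in ded1-cs, a gap of 1.69 that a change of scale does not move. With hcDBP1 the authors' deposited table gives 0.42 for GCN1 and -0.65 for GCN20, a gap of 1.08. In ded1-ts the gap in TE was 0.25, and in the double mutant 0.02, both from the authors' deposited table. The parting in TE was therefore large at 15 °C and small in the 37 °C ded1-ts strains. In footprints the gap was 0.80 in ded1-ts and 1.23 in the double mutant, and in mRNA 0.55 and 1.20.

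The subunits of eIF2B, the exchange factor, were spread widely in TE in ded1-cs and lay close together in ded1-ts. All genes were also called more often in TE in ded1-cs, at 38.3%, than in ded1-ts, at 9.25%. Whether 5 other genes would spread as widely was not tested. GCD7, the beta subunit gene, stood at -2.36 in TE in ded1-cs with footprints at -2.32 and mRNA at 0.04 in the authors' deposited table. GCD2, the delta subunit gene, stood at 0.99 and GCN3, the alpha subunit gene, at 0.81 in TE in the authors' deposited table. GCD1, the gamma subunit gene, stood at -0.25 and GCD6, the catalytic epsilon subunit gene, at -0.83 in TE in the authors' deposited table, and GCD6 was at -1.43 with equal totals. Equal totals shift every TE by -0.59 in ded1-cs, which brings the higher GCD2 and GCN3 closer to the control. The range over the 5 subunits was 3.35 in TE and 0.26 in mRNA, so the spread lay in footprints. GCN3, GCD7 and GCD2 are the regulatory subunits, which sense phosphorylated eIF2, and they held both ends of this range. With hcDBP1 GCD7 stood at -1.78 in the authors' deposited table and the range was 2.54. High-copy DBP1 moved GCD7 in ded1-cs by 0.58 in TE, under 2-fold, by difference of the deposited changes.

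In ded1-ts the 5 subunits lay between -0.32 for GCD7 and 0.14 for GCD1 in TE in the authors' deposited table, a range of 0.47. With hcDBP1 the range was 0.25, and in the dbp1-deletion strain 0.47. GCD7 again stood lowest in the double mutant, at -1.16 in the authors' deposited table, and GCD2 highest at 0.29, a range of 1.45. By difference of the deposited changes, GCD7 in the double mutant stood at -0.93 against the dbp1-deletion strain, and at -1.04 when centred on all genes, past 2-fold. GCD7 had the lowest TE of the 5 subunits in every strain except the dbp1-deletion strain, where GCD1 was lowest. Within a strain, the log2 footprint-to-mRNA ratio of GCD7 lay 0.28 above the median of all genes in DED1-CS and 2.1 below it in ded1-cs, where 513 of 5073 genes were lower. GCD7 thus left the middle of the table in ded1-cs, whereas GCN4 was near its bottom in the control already.

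The genes around the pathway were read from lists drawn up from textbook knowledge. For the degradation of Gcn4, the list held the ubiquitin ligase genes CDC4, CDC53 and SKP1, the conjugating enzyme gene CDC34, the kinase genes PHO85 and SSN3, and the cyclin gene SSN8. In ded1-cs 4 of 7 were 2-fold lower in TE and 0 higher, where 21.9% of all genes were lower. SSN3, which like Pho85 marks Gcn4 for degradation, stood at -2.54 and CDC53, the ligase scaffold gene, at -2.03 in the authors' deposited table. The median of the list was -1.01 beside 0.10 for all genes. In ded1-ts 1 of 7 was lower and 0 higher, SSN3 at -1.24 in the authors' deposited table, where 6.4% of all genes were lower, and in the double mutant 1 of 7 was lower, SSN3 at -1.23 in the authors' deposited table, where 9.84% of all genes were lower. With equal totals 5 of 7 were lower in ded1-cs and 2 of 7 in ded1-ts. Over all genes, 1789 of 5078 in ded1-cs and 382 of 5222 in ded1-ts were then lower. In mRNA, none of the 7 genes reached 2-fold in ded1-cs or ded1-ts, where 2.11% and 7.35% of all genes did.

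Coactivators that Gcn4 recruits were partly lower in TE. In ded1-cs 4 of 10 were lower and 1 higher, where 21.9% and 16.4% of all genes were, and 6 and 0 with equal totals, with GCN5, a histone acetyltransferase gene, at -1.64, GAL11, a Mediator subunit gene, at -1.37 and MBF1, a bridging factor gene, at 1.30 in the authors' deposited table. In ded1-ts 0 of 10 reached 2-fold, and 1 was lower with equal totals, where 2.85% of all genes were higher and 6.4% lower as deposited. With equal totals, 91 of 5078 genes were higher and 1789 lower in ded1-cs, and 382 of 5222 were lower in ded1-ts. The double mutant had 3 of 10 lower, where 9.84% of all genes were, among them GAL11 at -2.07 and GCN5 at -1.68 in the authors' deposited table. Among 8 genes for Gcn2 regulators and initiator tRNA methylation, 1 was higher and 1 lower in ded1-cs, no more than the 16.4% and 21.9% of all genes, and 0 and 1 with equal totals. These were KRS1, a lysyl-tRNA synthetase gene, at 1.08 and SIT4, a phosphatase gene, at -1.57 in the authors' deposited table. In ded1-ts 0 of 8 reached 2-fold, where 2.85% of all genes were higher and 6.4% lower. YIH1, an inhibitor of Gcn2 activation, stood at 1.33 and SIT4 at -1.33 in the double mutant in the authors' deposited table. Of 11 genes for eIF2 and scanning factors, 4 were higher in TE in ded1-cs and 0 lower, where 16.4% of all genes were higher, but with equal totals 1 of 11 was higher, TIF11. TIF11, the gene of eIF1A, stood at 1.95 and SUI1, the gene of eIF1, at 1.46 in the authors' deposited table. The same genes stood at 1.14 and 1.35 in ded1-ts in the authors' deposited table, and were the 2 of 11 that were higher there, where 2.85% of all genes were. For TIF11 in ded1-ts that TE came with mRNA at -1.03 and footprints at 0.11 in the authors' deposited table. The TIF11 TE was 0.07 in the double mutant in the authors' deposited table, and -0.05 against dbp1-deletion by difference of the deposited changes. HCR1, an eIF3 subunit gene, was the 1 of 11 that was lower in the double mutant, at -1.24 in the authors' deposited table, where 9.84% of all genes were lower.

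No other listed gene with described upstream reading frames was 2-fold lower in TE in ded1-cs and 2-fold higher in ded1-ts. This rule was met by 4 of 5071 genes, GCN4 among them, so it says little about a list of this size. In ded1-cs 6 of 17 were 2-fold lower in TE and 1 higher, where 21.9% and 16.4% of all genes were. With equal totals 10 of 17 were lower and 1 higher in ded1-cs, and 3 of 18 were lower in ded1-ts. Over all genes, 1789 of 5078 were then lower and 91 higher in ded1-cs, and 382 of 5222 were lower in ded1-ts. In ded1-cs YAP1, an oxidative stress activator gene, stood at -2.05 in the authors' deposited table. SCH9, a growth kinase gene, stood there at -1.54 and CAD1, a YAP1 relative, at 1.61. In ded1-ts 0 of 18 were higher and 2 lower, HOL1, a transporter gene, at -2.52 and SCH9 at -1.56 in the authors' deposited table, where 2.85% and 6.4% of all genes were. In the double mutant 5 of 16 were lower and 1 higher, where 9.84% and 2.94% of all genes were, with HOL1 at -2.89, SCH9 at -2.63 and CBS1, a mitochondrial translation activator gene, at 1.33 in the authors' deposited table. In ded1-ts the GCN4 TE of 1.43 thus lay above every analysed gene of this list, whose highest value was 0.95 for CBS1 in the authors' deposited table. In ded1-cs CBS1 stood at -1.28 in the authors' deposited table, so it narrowly missed the 2-fold rule in ded1-ts.

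The genes whose TE lay closest to that of GCN4 over the 6 deposited strain changes were sought among 4867 genes that passed the level minimum in all tables. Likeness was the root mean square difference over 6 values, several of which share a control. CPD1, a cyclic phosphodiesterase gene, was nearest at 0.727, followed by JJJ3 at 0.739, PDR12, a weak acid exporter gene, at 0.756, GNT1 at 0.771 and CBS1 at 0.779. For CPD1 the authors' deposited table gives -1.57 in ded1-cs, 0.49 in ded1-ts and 0.89 in the double mutant. The nearest genes thus shared the signs of GCN4 and were smaller in size in these 3 strains. None of the other 9 pathway genes was among them, the nearest being GCN20 at 1.34 and GCD6 at 1.35. By Pearson correlation over the same 6 values, 1 of the 5 nearest genes was shared, GNT1. The pathway gene GCN20 was then among the 5 nearest, at 0.997. The other 9 pathway genes ranged by this measure from -0.97 for GCN3 to that value.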

How the data were processed

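The 6 tables of the authors give footprints, mRNA and TE as log2 values, normalized by them: a level that pools 2 libraries, and a change against a control. Per the submitters' processing notes, DESeq2, TopHat2 2.1.0, Bowtie2 2.6.0, CASAVA 1.8 and build sacCer2 were used, with no role given. Base 2 was read from the values, because the deposited tables state none. Deposited TE equalled footprint minus mRNA change in every row to within 1e-05.

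The planned edgeR test could not be run, because the deposited tables hold no value per library. Strains of different tables were compared by subtracting their deposited changes, so that a control they share drops out. That both dbp1-deletion tables share 1 WT was assumed. Their 4 WT level columns match no sample and were not used, so the level minimum there rests on the mutant strains. By locus tag 5444 reading frames were matched to symbols, and no positions are reported.

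The 10 genes, the lists and the 2-fold rule were chosen with earlier results of these data known. Named genes are the 10, up to 2 per list, direction and comparison with the largest change, DED1, DBP1 and the 5 nearest GCN4. Exceptions are CNL1, KTR5, YIL060W, HIS3, LEU2, ARG4, SNZ1 and genes named as list members. SUI2, TIF5, TAP42 and SER1 were not analysed here, and some listed genes are not reported by name. Scripts ran in Python 3.11.15 with pandas 2.3.3, numpy 2.4.6 and matplotlib 3.10.9, and were tested on simulated data.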

Additional observations from a re-analysis of the deposited data

How the results depend on the processing

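No replicate spread is known, and what depth limits cannot be stated, since depth is unknown. No paired analysis was possible because the tables hold no value per library, and for the same reason no replicate could be left out. Equal column totals could not be run for the 4 comparisons that involve the dbp1-deletion experiment. No called value changed sign under any alternative that was run. Of 1621 single values of the 10 genes under the alternatives, leaving aside the TE of GCN4, 1537 kept their side of the threshold, 4 lost it and 80 gained it. The GCN4 TE in ded1-ts with hcDBP1 was 0.91 with equal totals, and the difference of hcDBP1 effects was -0.9997 when centred. Under the 1.5-fold rule GCN4 was also called at 0.75 (hcDBP1 in ded1-cs), 0.65 (double mutant against dbp1-deletion) and -0.77 (ded1-ts without less with DBP1). The cause of these moves was not tested beyond the construction of each alternative.

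With equal totals, the 10 genes held 5 calls in ded1-cs, 4 in ded1-cs with hcDBP1, 0 in ded1-ts with hcDBP1 and 2 in the difference of hcDBP1 effects. When centred, they held 1 call in the double mutant against dbp1-deletion and 0 in the difference of hcDBP1 effects. At 1.5-fold they held 8 calls in ded1-cs, 6 with hcDBP1, 8 in the ded1-ts less ded1-cs effect, and 2 in 8 other comparisons. Over all genes, equal totals gave 211 calls for hcDBP1 against ded1-cs, 315 for ded1-ts with hcDBP1 and 477 for the difference of hcDBP1 effects. With equal totals the split of higher and lower was 43 and 24 for hcDBP1 in ded1-ts (67 and 16 as deposited), 1625 and 70 for ded1-ts less ded1-cs (869 and 496) and 21 and 456 for the difference of hcDBP1 effects (66 and 133).

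With no level minimum, calls over all genes were 215 for hcDBP1 in ded1-cs, 149 for hcDBP1 in ded1-ts, 238 for dbp1-deletion and 191 for ded1-ts without less with DBP1. With a minimum of 200 they were 78 for hcDBP1 in ded1-cs, 399 for the double mutant, 132 for the difference of hcDBP1 effects and 67 for ded1-ts without less with DBP1. At 1.5-fold they were 3182 in ded1-cs, 2643 with hcDBP1 and 634 between them, then 1385 in ded1-ts, 941 with hcDBP1 and 402 between them. At 1.5-fold they were also 655 for dbp1-deletion, 1619 for the double mutant and 1389 between them, and 2752, 975 and 658 for the 3 differences of effects. By Pearson correlation 1 of the 5 genes most like GCN4 was shared.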
